A study of Triticum aestivum with 4 samples.

Results

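The response of Chinese Spring wheat roots to an osmotic shock was read from 2 of the 4 arrays of the series, 1 of seedlings held in polyethylene glycol (PEG) and 1 of seedlings held in tap water. Both were chosen by their cultivar and treatment labels. Chinese Spring is the common wheat (Triticum aestivum) line from which the wheat reference genome was built. Seedlings were grown at 25 °C with 14 h of light, and at the 2-leaf stage the treated ones were moved into PEG 6000 at an osmotic potential of -0.49 MPa, with roots taken after 6 h. The control seedlings stayed in tap water, and the other 2 arrays hold the same pair of conditions for the cultivar Luohan No.2. A time of 6 h is given for the PEG arrays only, and none for the controls. Each array carried biotin-labelled total root RNA of 1 sample. The labels do not say how many seedlings entered a sample. With 1 array a side there was no spread between plants to set a difference against, so every value below is a description of these 2 arrays and no test was made.

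PEG of this grade is generally too large to enter the root and lowers the water potential around it, which imitates drying soil. Plant cells that lose water make abscisic acid, and many genes under this hormone encode late embryogenesis abundant (LEA) proteins, hydrophilic proteins that also fill drying seeds. Cells further build up compatible solutes such as betaine, whose precursor choline comes from phosphoethanolamine methylation, and growth of the root slows.

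Signals were MAS5 intensities on a linear scale. After 175 control probe sets were set aside, 61115 remained. Signals under 25 were raised to 25, and the change is log2 of PEG over water. A probe set at or under 25 on both arrays was not measured, and where only 1 array was above 25 the fold is a lower limit, given with the words at least. Of 64 RPTR control probe sets, made for reporter genes, 61 on the PEG array and 62 on the water array lay at or under 25. Probe sets of 100 or more on at least 1 of the 2 arrays numbered 15136 and are called bright here. A signal of 100 is also the level to which the arrays were scaled, with 2% trimmed means of 100.02 on each. The PEG array had 13464 probe sets of 100 or more and the water array 13729. The median signals were 20.2 and 20.3. Among 18 hybridisation controls added to the samples and bright on these arrays, log2 of PEG over water ran from -0.46 to 0.17 with a median of -0.095. The ratio of 5' to 3' signal, a measure of transcript completeness, was 0.0693 on the PEG array and 0.0805 on the water array for sucrose synthase. It was 0.388 and 0.390 for glucose-6-phosphate dehydrogenase, and 2.73 and 3.50 for ubiquitin.

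The root label was set against genes known from green tissue, cereal roots and grain. The 3 root genes, the malate transporter TaALMT1, the siderophore enzyme TaDMAS1 and the phytochelatin synthase TaPCS1, were above 25 on both arrays, with summed signals of 475.1 in PEG and 408.2 in water. Of 7 genes of photosynthesis and plastids, 7 in PEG and 6 in water were above 25, summing to 8136.8 and 8709.1. Nearly all of that sum was rbcl, the large subunit of Rubisco, and without it the sums were 372.2 in PEG and 702.1 in water. Of 14 genes known from grain, 5 were above 25 on each array, with sums of 7165.6 in PEG and 1480.5 in water. The PEG sum was mainly Rab15, LEA1 and the avenin-like gene avnlb, and the water sum mainly avnlb. The 6 gliadin and glutenin genes in that set lay between 0.2 and 21.2 in PEG and between 0.8 and 27.6 in water, and only Gli-8 (21.1 in PEG and 27.6 in water) and LMW-GS (8.7 and 27.6) were above 25 on an array.

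Most bright transcripts stayed within 2-fold, 12518 of 15136 probe sets (82.7%), and the large changes were mainly increases. Signals were at least 2-fold higher in PEG for 1929 (3.16%) of all 61115 probe sets and at least 2-fold lower for 2124 (3.48%). Among the 15136 bright probe sets, 1315 (8.69%) were at least 2-fold higher and 1303 (8.61%) at least 2-fold lower, so at this size the directions were nearly even. In bulk roots, fewer cells of a type and less RNA per cell cannot be told apart. The balance tilted with the size of the change. At 4-fold or more, 493 probe sets were higher and 321 lower. At 8-fold or more there were 245 higher (1.62%) and 98 lower (0.647%), and at 32-fold or more 70 higher and 7 lower. The 245 belonged to 202 sequence clusters by their probe set names and the 98 to 80. With the floor at 10, 50 or 100 the 8-fold counts were 301, 188 and 123 higher against 126, 80 and 63 lower. Counts at 4-fold or more are the same over all and over bright probe sets, since a 4-fold step from the floor ends at 100.

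**Figure D1:**
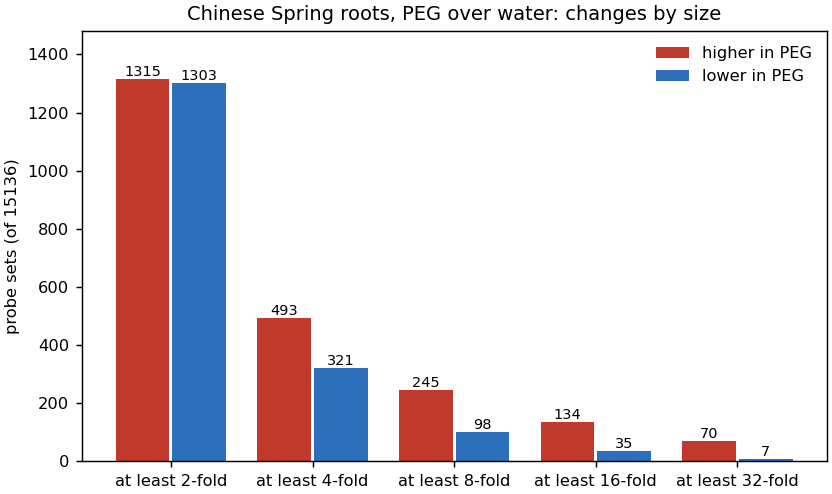
Number of bright probe sets (y axis, of 15136) at least 2-, 4-, 8-, 16- and 32-fold apart (x axis) between the Chinese Spring PEG and water arrays, 1 array each, with higher in PEG in red and lower in PEG in blue. The bars start level at 1315 and 1303 and separate to 70 against 7 at 32-fold.

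Of the 1315 bright probe sets at least 2-fold higher, 215 (16.3%) were at or under 25 in water. Of the 1303 at least 2-fold lower, 54 (4.14%) were at or under 25 in PEG. The median signals of the higher set were 368.4 in PEG and 85.0 in water, a median log2 change of 1.65. Those of the lower set were 94.9 in PEG and 293.9 in water, with a median of -1.44. Over all bright probe sets the median change was -0.053, with the middle of the distribution between -0.43 and 0.34 (quartiles). The probe sets nearest the 2-fold limit had log2 changes of 1.0005 (inside) and 0.9995 (outside) among those higher, and -1.0 and -0.9991 among those lower.

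The share of probe sets 2-fold apart in one direction lay between 4.67% and 10.2% over the range of signals. By mean signal of both arrays, probe sets between 25 and 50 were higher in 5.40% and lower in 6.87% of 7482. Between 50 and 100 the shares were 7.49% and 10.2% of 5877. From 200 to 500 they were 8.58% higher and 7.03% lower of 4649, and from 1000 to 2000 they were 9.13% and 7.21% of 1248. Of 984 probe sets at 2000 or more, 4.67% were higher and 6.91% lower. Lower probe sets outnumbered higher ones below 200 and at 2000 or more, and higher ones outnumbered lower ones in the 3 classes in between.

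**Figure D2:**
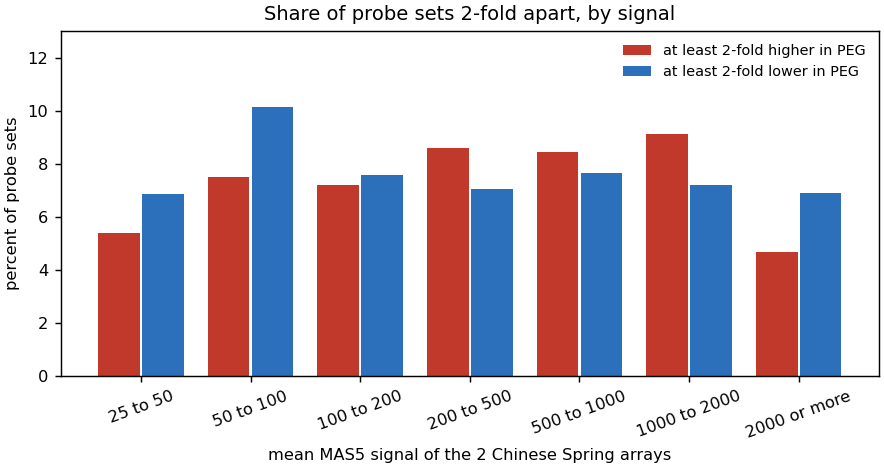
Percent of probe sets at least 2-fold higher (red) and lower (blue) in PEG (y axis) by mean MAS5 signal of the 2 Chinese Spring arrays (x axis). Lower probe sets are the larger share below a mean of 200 and at 2000 or more, and higher probe sets between 200 and 2000.

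Probe sets of the same sequence cluster, grouped by their names, were set beside each other. They share the arrays and the RNA, and some are named for the same cluster member while others stand for different members. Neither agreement nor disagreement between them therefore measures how far a single probe set can be trusted. In 2659 clusters with at least 2 bright probe sets, log2 changes had a pooled SD of 0.36 within clusters. In 203 of them the brightest probe set was at least 2-fold higher, and the second was then at least 2-fold higher in 154 (75.9%), within 2-fold in 49 and at least 2-fold lower in 0. In 186 the brightest was at least 2-fold lower, and the second was at least 2-fold lower in 130 (69.9%), within 2-fold in 55 and at least 2-fold higher in 1. In the 2270 clusters whose brightest probe set was within 2-fold, 57 second probe sets were at least 2-fold higher and 67 at least 2-fold lower.

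Gene names were few. A gene entry was paired with 1273 probe sets, making 771 genes, of which 102 carried a name beyond their locus number. By each gene's brightest probe set, 476 of the 771 were bright, and 66 of these (13.9%) were at least 2-fold higher and 28 (5.88%) at least 2-fold lower, beside 8.69% and 8.61% of all bright probe sets. Of the 102 named genes, 70 were above 25 on at least 1 array and 53 were bright. Among the 53, 8 were at least 2-fold higher and 1 at least 2-fold lower. Of 423 bright genes with a locus number only, 58 were at least 2-fold higher and 27 lower. Of these genes, 19 and 4 were at least 8-fold apart in these directions, beside 1.62% and 0.647% of all bright probe sets.

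The strongest named changes were in LEA proteins. Rab15, a dehydrin-type LEA protein that responds to abscisic acid, had a signal of 2736.1 in PEG and 10.1 in water by its brightest probe set, Ta.2704.1.S1_x_at, which is at least 109-fold higher. Its 2 further probe sets gave 2567.4 in PEG against 1.2 in water and 1342.4 against 1.2, at least 103-fold and 53.7-fold higher. All 3 were thus near 0 in water and bright in PEG. LEA1, another LEA protein, had 2820.6 in PEG and 40.5 in water by its single probe set, 69.6-fold higher. That probe set and the brightest of Rab15 end in _x_at, a suffix for probes that may also bind other genes, while the 2 further Rab15 probe sets end in _at. Of the 5 LEA and dehydrin-like genes, 3 were above 25, and 2 were thus at least 2-fold higher and 0 lower. Of probe sets above 25, 6.17% and 6.8% passed in these directions. Of genes above 25 by their brightest probe set, 11.95% and 5.82% passed. The 3 LEA and dehydrin-like genes that did not pass also did not reach 100. EMH2, an Em protein of the embryo, had 27.0 in PEG and 11.1 in water, at least 1.08-fold higher at this floor. A further Em gene, EM, had 11.9 and 11.5, and the acidic dehydrin COR410 had 14.2 and 15.7, both not measured. With the floor at 100, the log2 changes were at least 4.77 for Rab15 and at least 4.82 for LEA1.

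Methyl transfer and choline synthesis gave a pair of increases past 4-fold beside 3 abundant members within 2-fold. PEAMT1 methylates phosphoethanolamine on the way to choline. Its probe set had 327.2 in PEG and 80.2 in water, 4.08-fold higher. A probe set of the same sequence cluster without a gene entry, Ta.1842.2.S1_at, had 2933.1 in PEG and 3174.1 in water, 1.08-fold lower. PIMT, a methyltransferase that repairs damaged aspartyl residues in proteins, had 115.2 in PEG and 19.1 in water, at least 4.61-fold higher. Its value rests on the floor, with log2 changes of at least 1.2 with the floor at 50 and at least 0.20 with the floor at 100. SAHH, which removes the by-product of methylation, was among the brightest transcripts, at 12351.6 in PEG and 9477.0 in water by its brightest probe set, 1.3-fold higher, and at 9160.1 and 5656.1 by the other, 1.62-fold higher. The lignin methyltransferase COMT1 had 6233.8 and 6598.4, and the adenine salvage enzyme APT1 2347.1 and 2592.1. Of the 5 genes of this list, all bright, 2 were at least 2-fold higher and 0 at least 2-fold lower. Of bright probe sets, 8.69% and 8.61% passed in these directions, and of bright genes, 13.9% and 5.88%.

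Among enzymes acting on walls and glycosides, Glc1 and TaGlu1a were more than 2-fold higher. Glc1 had 679.5 in PEG and 108.7 in water, 6.25-fold higher by a probe set whose suffix, _a_at, marks several transcripts of 1 gene. Its other probe set was at 9.9 and 1.1 and not measured. TaGlu1a, a beta-glucosidase that releases benzoxazinoids from their stored glucosides, had 303.6 in PEG and 86.3 in water, 3.52-fold higher. Another probe set of its sequence cluster without a gene entry, Ta.4601.1.S1_s_at, was far brighter and differed the other way, with 5203.6 in PEG and 6981.1 in water, 1.34-fold lower. The fructan-degrading enzyme 1-FEH had 700.5 and 615.2, and the wall-loosening enzyme XTH 40.8 and 31.1. The second fructan exohydrolase, 6-FEH, was at 20.3 and 2.0, not measured. Of the 5 genes, 4 were above 25, with 2 at least 2-fold higher and 0 lower. The shares were 6.17% and 6.8% of probe sets above 25, and 11.95% and 5.82% of genes above 25.

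**Figure D3:**
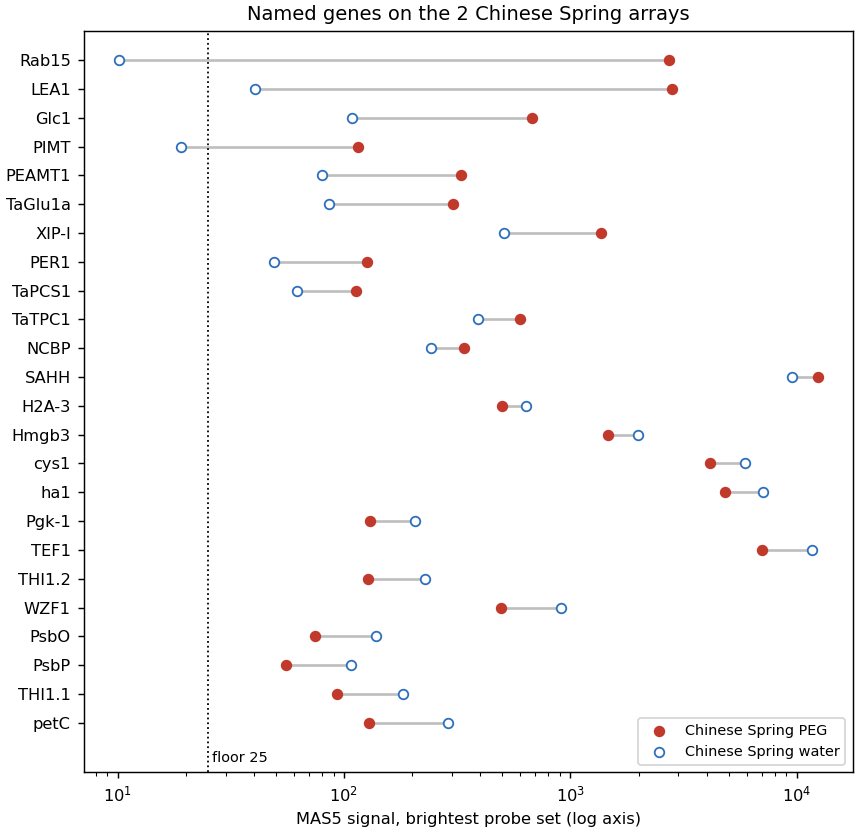
MAS5 signals (x axis, log scale) of the 24 named genes with the largest changes, 12 in each direction, by their brightest probe set on the Chinese Spring PEG array (filled red) and water array (open blue), with a dotted line at the floor of 25. Rab15 and LEA1 stand apart with PEG signals of 2736.1 and 2820.6, while the 12 genes lower in PEG moved by at most 2.23-fold.

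Of the detoxifying enzymes only PER1 passed 2-fold. PER1, in the list of antioxidant enzymes, had 126.5 in PEG and 49.2 in water, 2.57-fold higher, and 57.6 and 28.6 by its other probe set, 2.01-fold higher. TaPCS1, which makes the metal-binding phytochelatins, had 112.9 in PEG and 62.0 in water, 1.82-fold higher. The glutathione transferase GSTZ1 had 1060.5 and 944.9. Prx1, CAT1 and lgul were at 29.0 or less on each array. Of the 6 genes, 5 were above 25, with 1 at least 2-fold higher and 0 lower. Of probe sets above 25, 6.17% and 6.8% passed in these directions, and of genes above 25, 11.95% and 5.82%.

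Of the defence proteins only XIP-I passed 2-fold. XIP-I, an inhibitor of microbial xylanases, had 1368.2 in PEG and 510.7 in water, 2.68-fold higher, and its second probe set had 1215.6 and 426.4, 2.85-fold higher. The thionins are small membrane-active proteins. THI1.1 had 93.3 in PEG and 182.2 in water, 1.95-fold lower, and THI1.2 had 127.9 and 227.8, 1.78-fold lower. The other THI1.1 probe set, at 36.3 in PEG and 46.3 in water, was 1.28-fold lower. The thaumatin-like protein PR5 had 97.3 and 123.3. THI1.3 and the lectin WGA2 were not measured, at 11.0 or less on each array. Of 6 genes, 4 were above 25, with 1 at least 2-fold higher and 0 at least 2-fold lower. The shares were 6.17% and 6.8% of probe sets above 25, and 11.95% and 5.82% of genes above 25.

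In the photosynthesis and plastid list, petC and PRK were more than 2-fold lower in PEG. petC, which encodes the Rieske iron-sulfur protein of photosynthetic electron transport, had 129.3 in PEG and 288.7 in water, 2.23-fold lower. Its other probe set was at 7.6 and 0.5. PsbP and PsbO, which stabilise the oxygen-evolving complex, had 55.7 in PEG against 107.9 in water and 74.7 against 138.9, which were 1.94-fold and 1.86-fold lower. The second PsbP probe set, at 37.1 in PEG and 62.0 in water, was 1.67-fold lower. The Calvin cycle kinase PRK had 32 in PEG and 74.4 in water, 2.33-fold lower, and the plastid thioredoxin Trx-M 35.1 and 68.7, 1.96-fold lower. The plastid phosphatase FBP had 45.4 in PEG and 23.5 in water, at least 1.82-fold higher. Of the 7 genes, all above 25, 2 were at least 2-fold lower and 0 at least 2-fold higher. Of probe sets above 25, 6.8% and 6.17% passed in these directions, and of genes above 25, 5.82% and 11.95%. The log2 change was below 0 in 6 of the 7, with a list median of -0.95. Over all probe sets above 25 the median was -0.049, so more of these also lay below 0 than above. Apart from rbcl the highest signal of the 4 bright members was 288.7, and with the floor at 100 the list median was -0.044. These are the genes used above as signs of green tissue, and its part in their difference was not tested.

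The probe sets of rbcl disagreed more than those of any other named gene. The brightest had 7764.6 in PEG and 8007.0 in water, and the next 7464.6 and 7806.9. At the dim end, TaAffx.128414.196.S1_at had 11.2 in PEG and 79.8 in water, at least 3.19-fold lower, and TaAffx.128414.229.A1_x_at had 46.4 and 27.9, 1.66-fold higher. Across 5 probe sets above 25 the rbcl log2 changes spanned 2.41, and no other named gene reached a span of 2.

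Proteins of translation, chromatin and the cytoskeleton stayed within 2-fold by their brightest probe sets, as did 82.7% of all bright probe sets. TEF1, an elongation factor of translation, had 7039.0 in PEG and 11660.1 in water, 1.66-fold lower, and 4485.3 and 6584.9 by its second probe set. The 6 further probe sets of its sequence cluster, without a gene entry, had log2 changes between -0.75 and -0.23. The cap-binding factor eIF4E had 897.7 in PEG and 1120.0 in water, while Eif4B had 900.2 and 729.8. The cap-binding protein NCBP had 337.7 in PEG and 243.5 in water, 1.39-fold higher, and eIF-2-beta had 1141.9 and 1261.0. The log2 changes of these 5 factors lay between -0.73 and 0.47.

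Among chromatin proteins, Hmgb3, a high mobility group protein, had 1467.3 in PEG and 1991.6 in water, 1.36-fold lower, and 238.0 and 263.5 by its other probe set. Histone H2A-3 had 496.8 in PEG and 637.7 in water, 1.28-fold lower, and 60.1 and 75.7 by its other probe set. The log2 changes of the 6 genes lay between -0.44 and 0.0081. The 7 tubulin and profilin genes were the tightest group, between -0.25 and 0.030, at signals from 685.3 to 8974.1. One exception lay in a second probe set of the alpha-tubulin gene TUBA, singled out after its values were seen, which had 447.9 in PEG and 997.2 in water, 2.23-fold lower, while the brightest TUBA probe set had 5888.7 and 6158.5.

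**Figure D4:**
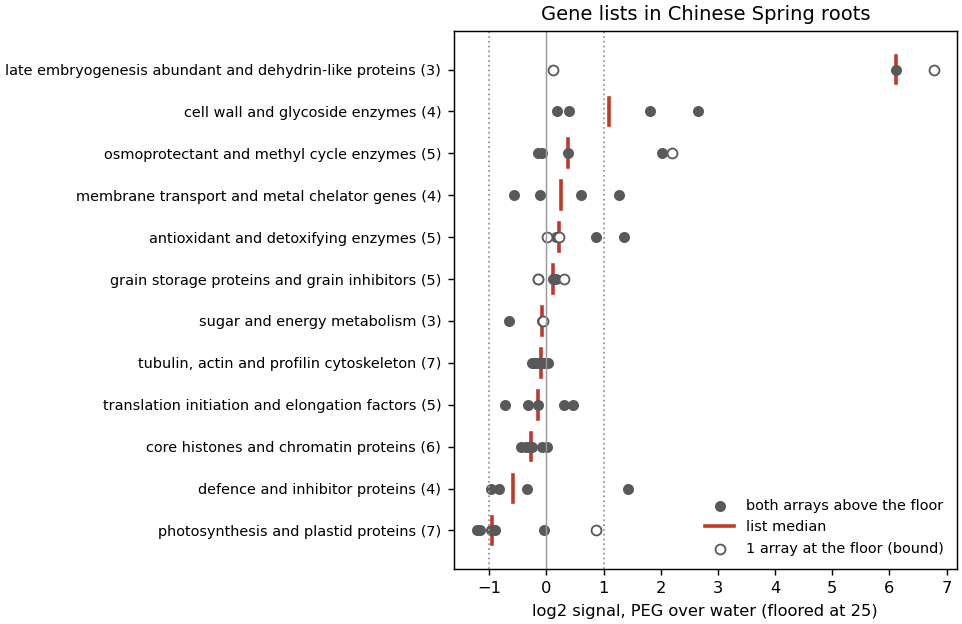
log2 of PEG over water in Chinese Spring (x axis) of each gene above 25 on at least 1 array, by gene list (rows, number of such genes in parentheses), with list medians as red bars, open circles for bounds and dotted lines at 2-fold. Rab15 and LEA1 lie above 6, and the 7 cytoskeleton genes between -0.25 and 0.030.

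Transport and transcription genes had moderate differences. TaALMT1, a malate channel known from aluminium tolerance, had 66.8 in PEG and 27.6 in water, 2.42-fold higher at dim signals. The vacuolar calcium channel TaTPC1 had 597.6 in PEG and 391.0 in water, 1.53-fold higher. The plasma membrane proton pump ha1 had 4802.1 in PEG and 7068.5 in water, 1.47-fold lower, and its 2 other probe sets were 1.51-fold and 1.29-fold lower. The siderophore enzyme TaDMAS1 had 295.4 and 318.6. The zinc finger gene WZF1 had 493.5 in PEG and 908.0 in water, 1.84-fold lower, and the TATA-binding protein TBP1 206.5 and 245.8. Pgk-1, a phosphoglycerate kinase, had 130.6 in PEG and 204.9 in water, 1.57-fold lower. The starch enzyme subunit AGP-S had 242.3 and 256.3. The gene cys1 had 4143.6 in PEG and 5903.1 in water, 1.42-fold lower, and 3986.9 and 5737.6 by its other probe set. All 3 genes of gibberellin 20-oxidase, a late enzyme of gibberellin synthesis, were under 25 on both arrays, with the highest value of 21.4 for GA20ox1a in water.

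The largest changes of all fell on probe sets with no gene entry. Ta.5833.1.S1_at had 5299.6 in PEG and 10 in water, at least 212-fold higher, and Ta.9389.1.S1_at had 5060.0 and 1.6, at least 202-fold higher. In the other direction, Ta.21082.1.S1_x_at had 21.9 in PEG and 1676.5 in water, at least 67.1-fold lower, and Ta.10583.1.A1_at had 59.3 and 2890.3, 48.7-fold lower. On the Luohan No.2 arrays these 4 had the same directions, with at least 2.46-fold, at least 20.4-fold, 9.0-fold and 6.18-fold in that order.

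The Luohan No.2 arrays, which share no sample with the Chinese Spring pair, show how far these changes recurred. Of the 1315 bright probe sets at least 2-fold higher in Chinese Spring PEG, 524 (39.8%) were at least 2-fold higher in Luohan No.2 PEG, 702 were within 2-fold, 53 (4.03%) were at least 2-fold lower and 36 were not measured. In Luohan No.2, 7.2% of all 15136 passed 2-fold upward and 9.86% downward. Of the 1303 lower in Chinese Spring PEG, 430 (33%) were at least 2-fold lower in Luohan No.2, 810 were within 2-fold and 30 (2.30%) were at least 2-fold higher. Of 245 probe sets at least 8-fold higher in Chinese Spring, 195 (79.6%) passed 2-fold upward in Luohan No.2 and 0 downward, and of 98 at least 8-fold lower, 81 (82.7%) passed downward and 0 upward. The median log2 change of the 245 was 4.12 in Chinese Spring and 1.90 in Luohan No.2, but the set was chosen on the Chinese Spring values, which by itself favours the larger figure there.

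When each cultivar's own bright probe sets were taken, the lists of those at least 2-fold higher shared 446, which is 33.9% of the Chinese Spring list of 1315 and 37.8% of the Luohan No.2 list of 1179 (8.03% of its 14675 bright probe sets). The lists of those at least 2-fold lower shared 389, which is 29.9% of 1303 and 23.4% of 1663 (11.3%). The Luohan No.2 PEG array had lower 5' to 3' ratios than its water array for sucrose synthase, at 0.0216 and 0.0554, and for glucose-6-phosphate dehydrogenase, at 0.243 and 0.375. Each of the hybridisation controls was higher on the Luohan No.2 PEG array than on its water array, such as BioB-3 (220.3 and 122.0) and CreX-3 (10440.1 and 8025.2). Median signals there were 13.9 in PEG and 13.5 in water, with 38.8% and 39.4% of probe sets above 25. In Chinese Spring 44.9% and 45.2% were above 25. The part of RNA quality and of these array differences in the counts was not tested.

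Among the 24 named genes, Rab15, LEA1, Glc1 and XIP-I passed 2-fold upward in both cultivars. Rab15 had 577.1 in PEG and 17.4 in water in Luohan No.2, at least 23.1-fold higher. Its further probe sets had 312.4 and 20.1, and 134.3 and 1.9, log2 changes of at least 3.64 and at least 2.43. LEA1 had 743.7 in PEG and 47.1 in water, 15.8-fold higher. Glc1 had 260.7 in PEG and 62.8 in water there, 4.15-fold higher, and XIP-I 1943.3 and 824.1, 2.36-fold higher. PEAMT1 and TaPCS1, higher in Chinese Spring PEG, had 105.9 in PEG against 97.3 in water and 90.0 against 84.9 in Luohan No.2. Of the genes lower in Chinese Spring PEG, Hmgb3 had 1997.1 in PEG and 4967.3 in water in Luohan No.2, 2.49-fold lower. Its other probe set had 1697.6 in PEG and 2178.9 in water there, a log2 change of -0.36. PsbO had 17.6 and 50.3 there, at least 2.01-fold lower, and WZF1 393.6 and 786.8, just under 2-fold lower. THI1.1, THI1.2, Pgk-1, ha1 and H2A-3 were higher in PEG in Luohan No.2, each within 2-fold by its brightest probe set. The other H2A-3 probe set had 85.9 in PEG and 41.1 in water there, a log2 change of 1.06. petC and PsbP were at most 18.6 on the Luohan No.2 arrays and not measured there. None of these differences between cultivars could be tested with 1 array per group.

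**Figure D5:**
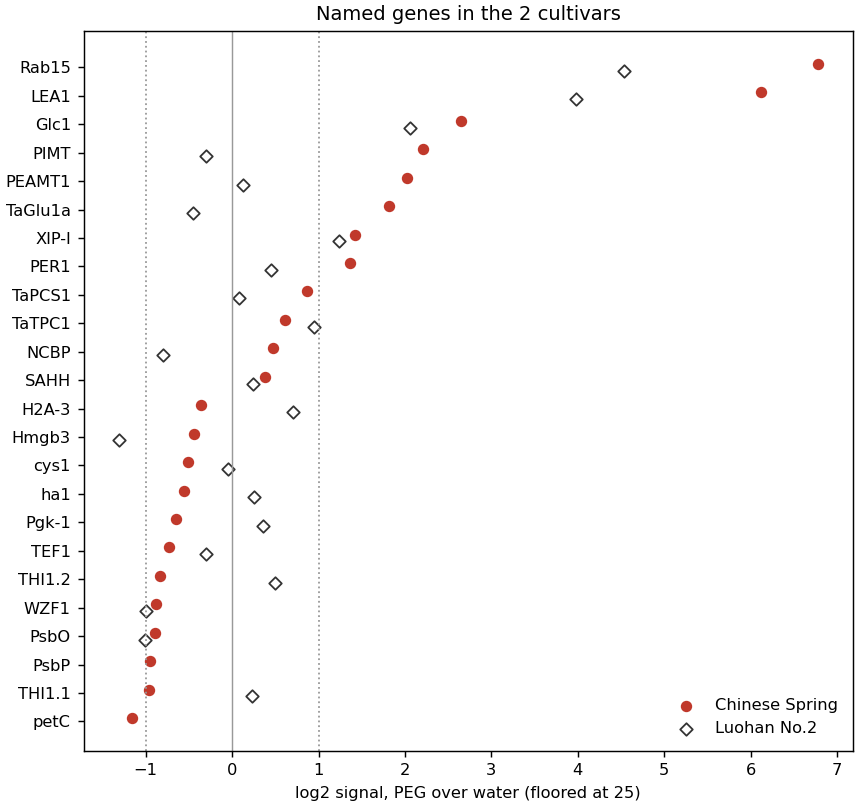
log2 of PEG over water (x axis, signals floored at 25, dotted lines at 2-fold) of the 24 named genes in Chinese Spring (filled red circles) and Luohan No.2 (open diamonds), 1 pair of arrays each. Genes not measured in Luohan No.2 (petC and PsbP) have no diamond, the values of Rab15 in both cultivars, PIMT in Chinese Spring and PsbO in Luohan No.2 are bounds, and Rab15 and LEA1 are the furthest to the right in both.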

How the data were processed

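Root RNA of 4 samples was hybridised to 1-colour Affymetrix wheat arrays. The authors deposited unlogged signal intensities, a single value for every probe set on each array. According to the submitters' processing notes they came from MAS5, with no version stated. MAS5 subtracts mismatch signal, so weak probe sets are noisy near 0, and it scales each array by a single factor. Detection calls were not used here, and the number of arrays limits the precision.

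From these values, 111 AFFX and 64 RPTR control probe sets were removed, signals were floored at 25, and log2 of PEG over water was taken (Python 3.11.15, numpy 2.4.6, pandas 2.3.3), with no further normalization. Bright means 100 or more on at least 1 array of the cultivar. The fold step was tested on simulated data. Probe sets were paired with genes through the platform annotation, and names were taken from its symbols and from the symbols and synonyms of a RefSeq table of IWGSC CS RefSeq v2.1, matched by gene identifier (770 of 771 genes). A gene is given by the probe set with the highest mean of the 2 Chinese Spring signals. Named were the 12 bright named genes with the largest change in each direction, bright members of the gene lists (dim ones by value or count), genes whose probe sets differed 4-fold, and the 2 most changed unnamed probe sets in each direction. Members and lists were chosen with earlier results of these data known. A few names spelled otherwise in the annotation, and the grain genes, were added to the lists after the values were seen. One gene entry whose synonyms name unrelated proteins was kept out of the lists.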

Additional observations from a re-analysis of the deposited data

Results flagged for a closer look

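In 7 of the 24 named genes the log2 changes with PEG had opposite signs in Chinese Spring and Luohan No.2 and lay at least 1 apart. These differences were not tested, since each change comes from 1 pair of arrays. The 24 were chosen for the largest changes in Chinese Spring, which by itself favours a gap to Luohan No.2. No such count was made over all bright probe sets, so 7 of 24 cannot be called many or few. PIMT had at least 2.20 in Chinese Spring and -0.30 in Luohan No.2, a difference of at least 2.50. Its Luohan No.2 signals were 27.5 in PEG and 33.8 in water. The Chinese Spring value rests on the floor, with a water signal of 19.1, and was at least 0.20 with the floor at 100. TaGlu1a had 1.81 and -0.45, a difference of 2.26, with Luohan No.2 signals of 205.7 in PEG and 280.8 in water. NCBP had 0.47 and -0.80, a difference of 1.27. The thionins ran the other way: THI1.1 had -0.97 in Chinese Spring and 0.22 in Luohan No.2, a difference of -1.19, and THI1.2 had -0.83 and 0.49, a difference of -1.32. Pgk-1 had -0.65 and 0.35, a difference of -1.0. H2A-3 had -0.36 and 0.70, a difference of -1.06.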

How the results depend on the processing

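No paired analysis was possible because each group holds 1 array and the labels give no replicate numbers. For the same reason no array could be left out. Over all probe sets, the 2-fold counts were 4870 higher and 5201 lower with the floor at 10, 1315 and 1303 at 50, and 948 and 851 at 100, which are also the bright counts at 100. At a threshold of 4-fold they were 493 and 321 over all and over bright probe sets. Without probe sets ending in _x_at, _s_at or _a_at, bright counts were 840 and 835, and 165 and 65 at 8-fold. With _a_at kept, since it marks several transcripts of 1 gene, they were 977 and 953, and 183 and 71 at 8-fold. That setting and the 8-fold counts, which were 123 and 63 with the floor at 100, were added after the data were seen. Higher probe sets made up between 66.1% and 73.4% of the 8-fold calls in all settings tried, against 71.4% as reported.

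The LEA list median of 6.12, over 3 of 5 members, was 4.77 with the floor at 100 and 5.44 with log2(signal + 25). LEA1 has no value without _x_at probe sets. Without _x_at and _s_at, EMH2 falls to a probe set at 19.7 in PEG and 9.7 in water, not measured. That leaves only Rab15 measured and no median. The methyl list median of 0.38 was 1.21 without _x_at and _s_at, which removes COMT1. The photosynthesis median of -0.95 was -0.57 with the floor at 50 and -0.044 at 100. The antioxidant median of 0.21 was 0.88 with the floor at 10 and 0.66 with log2(signal + 25). The wall and glycoside median of 1.1 was 0.29 without all 3 suffixes and 1.1 with _a_at kept. The sugar metabolism median of -0.081 was -0.56 with the floor at 10. Of 205 alternative values for named genes, 18 moved by more than the within-cluster SD and 0 of the 2-fold changes turned round. Another floor or an added constant cannot turn a sign, so under those settings the 0 was fixed beforehand. Glc1 had 0 without all 3 suffixes, 2.64 with _a_at kept and 1.32 averaged over its probe sets, PER1 had 0.34 with the floor at 100, and petC had -0.58 averaged over its probe sets. Signals near 25 limit what dim genes can show.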
